A study of Mus musculus with 8 samples.

Results

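A set of 10 genes that mark the macrophages resident in the mouse spleen were followed in lymphoma-bearing and control spleens. They are *Spic*, *Hmox1*, *Slc40a1*, *Vcam1*, *Cd163*, *Marco*, *Siglec1*, *Timd4*, *Cd5l* and *Mrc1*, and they were found by gene symbol among 19505 named genes on the array. All 10 genes were read, each from its only transcript cluster, that is, the set of probes for the exons of 1 gene. The lymphoma group holds 4 spleen samples of lymphoma-bearing *Vav1*DC/DC mice, and the control group 4 spleen samples of mice without that allele, all on the C57BL/6 strain. Both groups are also homozygous for a knock-in allele of another gene, which is not named here, so the controls are not wild type. The *Vav1*DC allele is a germline edit that cuts off the C-terminal end of VAV1, a signalling protein of blood cells, so every cell type carries it, macrophages included. The labels give no age or sex of the animals, and no source says whether the samples came from different animals, so p-values reflect only how far these samples spread. GEO's design text speaks of splenocytes and the methods of RNA from the spleen, so it is not settled how far macrophages held in the tissue mesh entered the samples.

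The red pulp of the spleen filters blood, and its macrophages take up aged red cells, break down their heme and return the iron to the circulation. The transcription factor SPIC is needed for their development in mice, and heme itself induces *Spic*. Around the white pulp lie 2 further kinds of resident macrophage, the marginal zone macrophages that bear the scavenger receptor MARCO and the metallophilic macrophages that bear sialoadhesin, the product of *Siglec1*.

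Expression was measured on Clariom S HT arrays as a log2 signal, on which a difference of 1 is a 2-fold difference. The 22206 transcript clusters had medians between 7.19 and 7.24 on the 8 arrays, and the 23 background probe sets had medians between 4.76 and 4.94. None of the 10 genes lay at or below that background on any array. Correlations across clusters were 0.992 to 0.995 between arrays of the same group and 0.967 to 0.979 between arrays of different groups. *Vav1* itself averaged 10.49 ± 0.08 in lymphoma and 10.18 ± 0.15 in control spleens (SD, n = 4 each). The edit inserts stop codons into the last part of the coding sequence and removes no exon, so this level does not check the labels. In the same lymphoma spleens all 8 neutrophil genes of a marker list were higher, by 2.09 to 4.21 on the log2 scale, led by *Ngp*, *Lcn2* and *S100a8*. All 7 measured B cell genes were lower, at -1.93 to -0.72, led by *Cr2*, *Fcer2a* and *Ebf1*, and 5 of 7 T cell genes were higher, led by *Cd4*, *Cd3e* and *Cd5*. The 3 measured Y-linked genes, *Kdm5d*, *Eif2s3y* and *Uty*, were called lower and lay above background on all arrays, with a mean level of 7.82 to 8.79 on the lymphoma arrays and 9.60 to 9.75 on the control arrays. The methods name female animals for in vivo work, with which signal of these genes on all 8 arrays is at odds. For tumour monitoring, however, the paper states that *Vav1*DC/DC mice of both sexes were followed, in cohorts described without the shared knock-in allele. The sex of the animals behind each sample is thus not settled, and its part in the differences was not tested. The arrays read a whole sample, in which fewer cells of a type and less RNA per cell cannot be told apart either.

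The resident macrophage genes split in the lymphoma spleens. *Cd5l*, *Vcam1*, *Spic* and *Hmox1* rose, *Cd163*, *Marco*, *Slc40a1*, *Siglec1* and *Timd4* fell, and *Mrc1* did not pass the test. The 9 called genes of 10 were called with limma at a Benjamini-Hochberg adjusted p of at most 0.05 over all clusters, a threshold that 35.4% of all clusters met, 18.2% as higher and 17.2% as lower. For 7 of the 10 genes the lymphoma and control arrays did not overlap, against 34.7% of all clusters. A called difference of at least 2-fold was found for 4 genes, *Cd5l* and *Vcam1* upwards and *Cd163* and *Marco* downwards, against 3.71% of all clusters. The median log2 fold change was -0.39 over the 10 genes and -0.06 over all clusters. The median of the 10 genes lies between those that rose and those that fell. Their mean level was 8.97 to 9.41 on the lymphoma arrays and 8.97 to 9.29 on the control arrays, so the set as a whole overlapped.

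**Figure D1:**
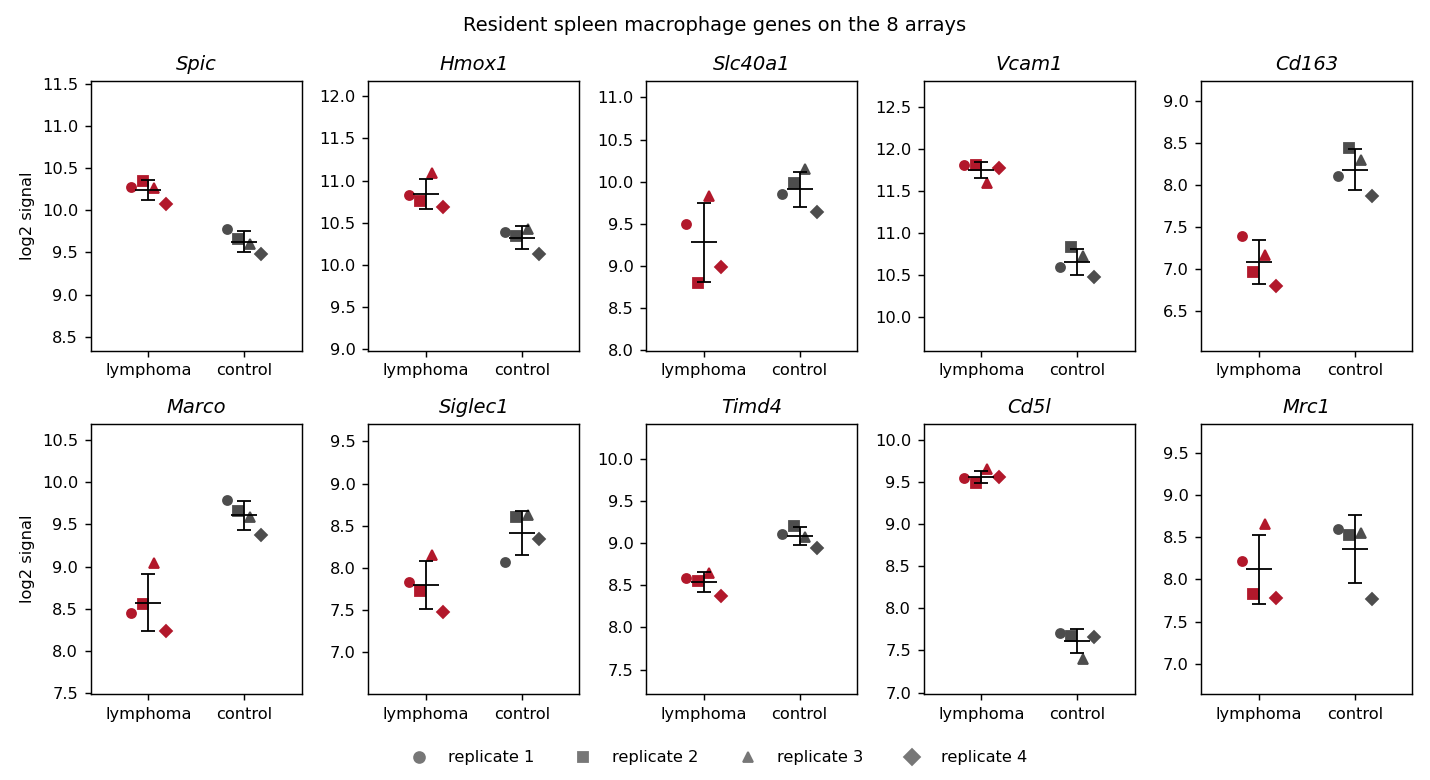
Log2 signal (vertical axes, each spanning the same number of log2 units) of the 10 genes on the 4 lymphoma arrays (red, left) and the 4 control arrays (grey, right); the marker shape gives the replicate number within a group, and bars show mean ± SD. *Cd5l*, *Vcam1*, *Spic* and *Hmox1* lie higher on every lymphoma array than on any control array, *Cd163*, *Marco* and *Timd4* lie lower, and *Slc40a1*, *Siglec1* and *Mrc1* overlap.

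The region before the transcription start was at hand for 6 of the 10 genes, *Spic*, *Cd163*, *Marco*, *Timd4*, *Cd5l* and *Mrc1*, from RefSeq of GRCm38.p6. In its 250 bases the PU box GAGGAA, the motif of PU.1 and SPIC, was searched on both strands. It was found in *Cd5l*, *Marco* and *Mrc1*, that is in 3 of 6, and in 23.3% of the 32851 promoters of the table. The 3 sequences are shown because they stand for a gene of each outcome: *Cd5l* rose, *Marco* fell and *Mrc1* missed the threshold. The windows are chr3:87357631-87357880 on the plus strand, chr1:120505025-120505274 on the minus strand and chr2:14229164-14229413 on the plus strand, each written 5′ to 3′ in the direction of the gene and ending at the base before the start, with the PU box in capitals (TTCCTC where it lies on the opposite strand).
Cd5l: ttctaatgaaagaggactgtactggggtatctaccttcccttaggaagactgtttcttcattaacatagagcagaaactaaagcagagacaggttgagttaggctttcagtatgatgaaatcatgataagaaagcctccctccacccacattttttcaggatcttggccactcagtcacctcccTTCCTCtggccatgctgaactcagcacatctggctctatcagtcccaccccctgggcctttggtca
Marco: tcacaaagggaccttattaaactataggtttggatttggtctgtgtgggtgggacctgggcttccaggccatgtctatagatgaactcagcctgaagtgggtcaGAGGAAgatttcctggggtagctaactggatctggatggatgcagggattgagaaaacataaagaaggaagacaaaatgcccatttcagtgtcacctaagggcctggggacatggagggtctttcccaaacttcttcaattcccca
Mrc1: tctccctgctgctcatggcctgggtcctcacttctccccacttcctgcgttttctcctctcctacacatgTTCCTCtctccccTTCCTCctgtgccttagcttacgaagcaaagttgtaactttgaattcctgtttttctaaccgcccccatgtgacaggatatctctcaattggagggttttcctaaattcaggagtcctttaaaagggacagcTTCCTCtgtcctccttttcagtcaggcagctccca
The box began 66 bases before the start in *Cd5l* and 146 bases before it in *Marco*, and 3 boxes began 180, 167 and 35 bases before it in *Mrc1*. The core TGANNNNGC of the antioxidant response element was found in *Cd5l* and *Timd4*, 2 of 6 genes against 35.2% of all promoters, and the core of the interferon-stimulated response element (GAAA repeated after any 2 bases) in 0 of 6 against 2.98%. A match of letters describes the window and is not a bound site, and genes that rose and genes that fell both held the PU box.

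*Spic* (chr10:88675269-88683023; gene positions are from RefSeq of GRCm38.p6 throughout), the factor of the red pulp lineage, had log2 signals of 10.28, 10.35, 10.26 and 10.07 in the lymphoma spleens, against 9.77, 9.66, 9.60 and 9.48 in the control spleens. The groups did not overlap, and lymphoma replicate 4, the lowest of its group, still lay above every control. The log2 fold change was 0.61 (95% interval 0.42 to 0.81, limma adjusted p = 0.000131), or 1.53-fold. Of the other factors of a list for red pulp macrophages, *Irf8* rose by 0.75 and *Pparg* by 0.70, whereas *Irf4* fell by 0.56. *Bach1*, the heme-sensing repressor that holds back *Spic* and *Hmox1*, had a log2 fold change of 0.06 and did not pass the test (limma adjusted p = 0.593), and *Nfe2l2*, which encodes the activator NRF2, rose by 0.41.

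*Hmox1* (chr8:75093618-75100593), which encodes heme oxygenase 1, the enzyme that opens the heme ring, had 10.82, 10.75, 11.10 and 10.68 in the lymphoma spleens and 10.40, 10.35, 10.42 and 10.13 in the control spleens. Again the groups did not overlap, with lymphoma replicate 3 highest and control replicate 4 lowest. It was higher by 0.52 on the log2 scale (95% interval 0.29 to 0.74, limma adjusted p = 0.00152).

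*Slc40a1* (chr1:45908070-45926532) encodes ferroportin, the only known iron exporter of mammalian cells and, in red pulp macrophages, the exit for recycled iron. Its log2 signals were 9.50, 8.80, 9.83 and 8.99 in the lymphoma spleens, against 9.86, 9.99, 10.15 and 9.64 in the control spleens. Lymphoma replicate 3 lay above control replicate 4, so the groups overlapped, and the SD of the lymphoma arrays, 0.47, was above that of the controls, 0.21. The log2 fold change was -0.63 (95% interval -1.04 to -0.22, limma adjusted p = 0.0201). The call was lost without lymphoma replicate 2 or 4 (adjusted p = 0.0589 and 0.0631), without control replicate 2 or 3 (adjusted p = 0.051 and 0.0586) and with a trended, robust moderation of the variances (adjusted p = 0.0931).

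*Vcam1* (chr3:116110020-116129688), the vascular cell adhesion molecule that red pulp macrophages carry under the control of SPIC in mice, had 11.81, 11.81, 11.60 and 11.77 in the lymphoma spleens and 10.60, 10.84, 10.72 and 10.48 in the control spleens. Every lymphoma array lay above every control. This gave a log2 fold change of 1.09 (95% interval 0.89 to 1.29, limma adjusted p = 1.28e-06). VCAM1 is also made by stromal and endothelial cells. Of 7 measured stromal genes 2 rose, 2 fell and 3 missed the threshold (*Dcn* 1.25, *Ccl19* 1.03 and *Ccl21a* -1.29), with mean levels of 9.37 to 9.48 on the lymphoma arrays and 9.33 to 9.49 on the control arrays, and of 9 endothelial genes none rose and 2, *Pecam1* and *Stab2*, fell, at -0.88 and -0.41 (*Stab2* not without lymphoma replicate 2 or 4 or control replicate 2 or 3, limma adjusted p from 0.0562 to 0.0776), with mean levels of 7.44 to 7.63 on the lymphoma arrays and 7.62 to 7.69 on the control arrays. None of these markers lay below background on all arrays of a group. Their part in the rise of *Vcam1* was not tested.

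The receptor for haptoglobin-bound haemoglobin changed most among the genes that fell. *Cd163* (chr6:124304636-124330529) had 7.40, 6.97, 7.17 and 6.80 in the lymphoma spleens, against 8.11, 8.43, 8.30 and 7.87 in the control spleens, with a gap between the groups. The log2 fold change was -1.09 (95% interval -1.39 to -0.79, limma adjusted p = 3.98e-05), so that the level was 2.13-fold higher in control spleens. *Mrc1* (chr2:14229414-14332023), the mannose receptor CD206 of red pulp macrophages, had 8.22, 7.82, 8.66 and 7.78 in the lymphoma spleens and 8.60, 8.53, 8.55 and 7.76 in the control spleens. The groups overlapped, and control replicate 4 was the lowest of all 8 arrays. Its log2 fold change of -0.24 did not pass the test (95% interval -0.69 to 0.21, limma adjusted p = 0.394), an interval that leaves room for a fall as large as that of *Slc40a1*.

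Both marker genes of the 2 marginal populations fell. *Marco* (chr1:120474538-120505024), the scavenger receptor of marginal zone macrophages, had 8.45, 8.56, 9.04 and 8.24 in the lymphoma spleens and 9.79, 9.66, 9.59 and 9.38 in the control spleens. Even lymphoma replicate 3, the highest of its group, stayed below control replicate 4. The log2 fold change of the gene, whose PU box lies on its own strand in the sequence above, was -1.04 (95% interval -1.35 to -0.72, limma adjusted p = 0.000101). *Siglec1* (chr2:131067801-131086778), of the metallophilic macrophages, had 7.83, 7.72, 8.16 and 7.47 in the lymphoma spleens, against 8.07, 8.61, 8.63 and 8.35 in the control spleens. Here the highest lymphoma array lay above the lowest control array. On the log2 scale the difference was -0.62 (95% interval -0.94 to -0.30, limma adjusted p = 0.00544). *Siglec1* is also induced by type I interferon. Of 11 measured interferon response genes 3 rose, 1 fell and 7 missed the threshold, with *Irf7* at 1.70, *Isg15* at 1.09 and *Mx2* at -0.55. *Oas1a* rose by 0.35 with overlapping groups (limma adjusted p = 0.0249) and lost its call in 6 of 17 alternative settings. The mean level of the list was 8.41 to 8.56 on the lymphoma arrays and 7.73 to 8.45 on the control arrays. Its part in the values of *Siglec1* was not tested.

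*Timd4* and *Cd5l*, both linked to the clearance of dying cells and debris, went opposite ways. *Timd4* (chr11:46810786-46844333) encodes TIM-4, a receptor for the phosphatidylserine exposed on apoptotic cells and a marker of long-lived resident macrophages. Its log2 signals were 8.58, 8.56, 8.65 and 8.37 in the lymphoma spleens, against 9.10, 9.20, 9.07 and 8.95 in the control spleens, without overlap. Lymphoma minus control came to -0.54 on the log2 scale (95% interval -0.73 to -0.35, limma adjusted p = 0.000289). *Cd5l* (chr3:87357881-87371074) encodes AIM, a secreted protein of tissue macrophages that binds debris and lipids. It had 9.54, 9.49, 9.65 and 9.56 in the lymphoma spleens and 7.71, 7.67, 7.40 and 7.66 in the control spleens. This was the largest change of the 10 genes, a log2 fold change of 1.95 (95% interval 1.76 to 2.14, limma adjusted p = 6.97e-09), or 3.86-fold, and 99.5% of all clusters had a smaller absolute change.

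**Figure D2:**
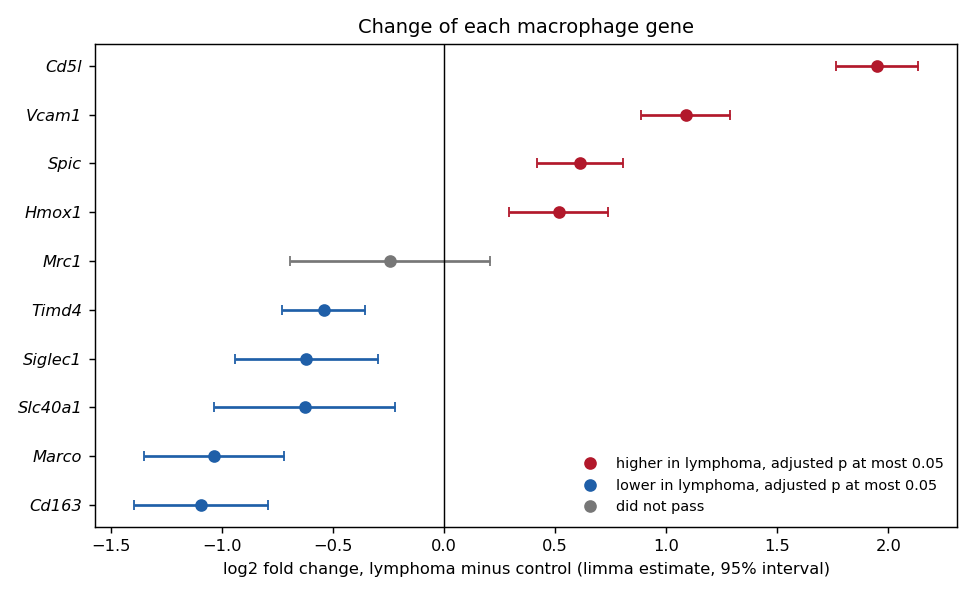
Log2 fold change of lymphoma against control spleens (horizontal axis) for the 10 genes, sorted by size, with the limma 95% interval as bars. Red points were called higher, blue points lower, and the interval of *Mrc1* (grey) crosses 0.

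Pairs of genes with linked roles changed by unequal amounts. In each array the log2 signal of 1 gene was taken from that of another, and the difference was compared between the groups with an exact two-sided permutation test over 70 labellings. In all 6 pairs the groups did not overlap and p was 0.0286, the smallest that 4 against 4 samples allow (0.0286 after adjustment over the 6 pairs). The pairs were chosen with earlier results of these data known, and no share over other gene pairs was computed. *Hmox1* minus *Cd163*, *Hmox1* minus *Slc40a1*, *Spic* minus *Slc40a1* and *Timd4* minus *Cd5l* set a gene called higher against one called lower. Their separation was close to fixed by those calls and adds no support to them. *Hmox1* minus *Slc40a1*, heme breakdown against iron export, was 1.56 ± 0.32 in lymphoma and 0.42 ± 0.12 in control spleens (SD, n = 4 each), a shift of 1.14. *Hmox1* minus *Cd163* shifted by 1.61, and *Spic* minus *Slc40a1* by 1.24, though without control replicate 2 or 3 the *Spic* shift gave p = 0.0571 in the exact permutation test. *Spic* minus *Vcam1* shifted by -0.47, so the rise of *Vcam1* was the larger of the 2. *Timd4* minus *Cd5l* had the widest shift, -2.49, with values of -1.02 ± 0.11 in lymphoma spleens and 1.47 ± 0.17 in control spleens (SD, n = 4 each). *Siglec1* minus *Marco* shifted by 0.42, the narrowest, and lost its call without any 1 of the 4 lymphoma arrays or control replicate 1 (0.24 to 0.45, exact permutation p from 0.0571 to 0.0857).

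Genes of macrophages in general rose in these spleens. Of 8 measured pan-macrophage genes 7 rose and none fell, with a median log2 fold change of 0.78, and the mean level of the list was 10.07 to 10.16 on the lymphoma arrays and 9.14 to 9.24 on the control arrays. *Aif1* rose by 1.74, *Itgam* by 1.32 and *Fcgr1* by 1.31. *Csf1r*, the receptor for the growth factor that macrophages depend on, rose by 0.66. The exception was *Adgre1*, which encodes the classical surface marker of red pulp macrophages in mice. It averaged 8.17 ± 0.29 in lymphoma and 8.33 ± 0.08 in control spleens (SD, n = 4 each), a log2 fold change of -0.17 that did not pass the test (limma adjusted p = 0.319). Monocytes and neutrophils make several genes of this list too, *Itgam* and *Spi1* among them, and the neutrophil list was higher on all 4 lymphoma arrays, at 9.86 to 10.16 against 6.71 to 7.11 on the control arrays. Their part in the rise was not tested.

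Set against the mean of the 8 pan-macrophage genes on the same array, *Cd163* was lower in lymphoma than in control spleens by 1.98 log2 units, with -3.01 ± 0.27 in lymphoma and -1.03 ± 0.22 in control spleens (SD, n = 4 each), and *Cd5l* was higher by 1.06. *Marco*, *Slc40a1*, *Siglec1* and *Timd4* had differences of -1.92, -1.51, -1.51 and -1.43, and *Mrc1* of -1.13. The call of *Mrc1* was lost without any 1 array other than lymphoma replicate 3 (p = 0.0571 in the exact permutation test). Its groups did not overlap, as its highest lymphoma value, -1.415, lay just below its lowest control value, -1.383. Leaving out 1 array also leaves fewer labellings, so p moves in coarser steps. With all arrays each of these 7 genes gave p = 0.0286 in the exact two-sided permutation test (0.0357 after adjustment over the 10 genes). The mean of the list was itself higher on every lymphoma array, and the list was chosen with earlier results of these data known. A gene that fell on its own was thus lower against it almost by construction, and these p-values add no support to such falls. *Mrc1*, at -0.24 on its own without passing the test, owes most of its -1.13 to the list. For *Spic* and *Hmox1* the direction depended on the yardstick. *Spic* had -0.27 against the list (exact permutation test, p = 0.0286) and 0.78 against *Adgre1* alone (p = 0.0286), and *Hmox1* had -0.37 against the list (p = 0.0571, and -0.47 with p = 0.0286 without lymphoma replicate 3) and 0.68 against *Adgre1* (p = 0.0286). *Vcam1* was at 0.20 against the list mean (exact permutation test, p = 0.0571), at -0.26 against its median and at 1.26 against *Adgre1*. Against *Adgre1*, a comparison chosen after the values were seen, *Cd163*, *Marco* and *Timd4* were still lower, with -0.93, -0.87 and -0.37 (exact permutation test, p = 0.0286 each), *Siglec1* and *Slc40a1* had -0.45 and -0.46 (p = 0.0857 each), and *Mrc1* had -0.08 (p = 0.714).

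Of 18 genes of heme and iron handling 12 rose, 2 fell and 4 missed the threshold, with a median log2 fold change of 0.43. The largest changes were those of *Hp*, which encodes haptoglobin, at 1.37, *Slc11a1*, an iron transporter of the phagosome membrane, at 1.36, and *Cp*, the ferroxidase ceruloplasmin that works with ferroportin, at 1.06. Neutrophils and monocytes make *Hp* and *Slc11a1* too, and the neutrophil genes were higher by 2.09 to 4.21 in the same spleens, with a mean level of 9.86 to 10.16 on the lymphoma arrays and 6.71 to 7.11 on the control arrays. None of the 8 neutrophil markers was below background on all arrays of a group, and their part in the rise of the heme and iron genes was not tested. Along the path that recycled heme takes, *Slc48a1*, which brings heme out of the phagolysosome, rose by 0.92, and *Blvra* and *Blvrb*, the biliverdin reductases that act after heme oxygenase, by 0.63 and 0.76. The ferritin genes *Ftl1* and *Fth1*, for iron storage, rose by 0.73 and 0.37. *Ncoa4*, which delivers ferritin for breakdown, and *Slc11a2*, an iron transporter of endosomes, had 0.11 and 0.06 and did not pass the test (limma adjusted p = 0.285 and 0.674). *Ireb2* and *Hpx* fell, by 0.30 and 0.27, the call of *Hpx* being lost without any 1 array other than lymphoma replicate 4 or control replicate 3 (limma adjusted p from 0.0538 to 0.113), and *Lrp1*, the receptor for heme bound to hemopexin, had -0.08 and did not pass the test. Of 7 measured erythroid genes 1 rose and 6 did not pass, and their mean level was between 8.88 and 9.06 on the lymphoma arrays and between 7.81 and 8.90 on the control arrays. The count that rose was 4 without control replicate 1 or 3 and 2 without lymphoma replicate 1. Without control replicate 2, 1 erythroid gene was called lower. The control arrays differed among themselves, with mean levels of 7.81 and 8.39 on replicates 2 and 4 and of 8.87 and 8.90 on replicates 1 and 3. *Rhag* rose by 1.50 (limma adjusted p = 0.013, and 0.101 with a trended, robust moderation), at 9.26 ± 0.22 in lymphoma and 7.76 ± 1.18 in control spleens (SD, n = 4 each). The part of red cell precursors in the heme and iron genes was not tested, and the globin genes were not analysed here.

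Among 12 red pulp identity genes and regulators 9 rose, 1 fell and 2, *Adgre1* and *Bach1*, did not pass, with a median log2 fold change of 0.55. *Spi1*, *Csf1r* and *Adgre1* are also counted in the pan-macrophage list. Monocytes and neutrophils make *Spi1* too, and the neutrophil genes were higher by 2.09 to 4.21 in the same spleens. The part of these cells in the rises of this list was not tested. *Sirpa*, the receptor that reads the CD47 signal on red cells, had the largest change, 1.16, followed by *Irf8*, given above, and *Treml4* at 0.74, and *Itgad*, the integrin chain CD11d, rose by 0.43 with overlapping groups (limma adjusted p = 0.0253). The call of *Itgad* was lost without lymphoma replicate 1 or 3 or control replicate 1 or 4 (adjusted p from 0.0611 to 0.0797). *Csf1*, also among the genes called higher, lost its call in 6 of 17 alternative settings. All 8 measured genes of a list for the marginal zone and its niche passed the test, 5 higher and 3 lower. Of these, *Lta* lost its call in 10 of 17 alternative settings. *Msr1*, a scavenger receptor of the same class as MARCO, rose by 2.62. *Nr1h3*, which encodes LXRα, a nuclear receptor that marginal zone macrophages need in mice and that also activates *Cd5l*, rose by 1.89, and *Madcam1*, of the cells that line the marginal sinus, by 1.25. *Cd209b*, which encodes SIGN-R1, the other surface marker of marginal zone macrophages, had 7.05 ± 0.30 in lymphoma and 7.45 ± 0.12 in control spleens (SD, n = 4 each) and fell by 0.40 (limma adjusted p = 0.03). Its groups overlapped, and the call was lost without lymphoma replicate 1, 3 or 4 or control replicate 2 or 3 (adjusted p from 0.0568 to 0.0937), after cyclic loess (0.0537) and with array weights (0.055). *Ltb*, the lymphotoxin that maintains the marginal zone, fell by 0.46 and *Cxcl13*, the chemokine of B cell follicles, by 0.83. *Cxcl13* is also counted in the stromal list. All 7 measured B cell genes were lower in the same spleens, at -1.93 to -0.72, and the part of B cells in these falls was not tested.

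Of 14 measured receptors and bridging molecules for apoptotic cells and other scavenged cargo 10 rose, 1 fell and 3 did not pass, with a median of 0.71. Among those called higher, *Pros1* lost its call in 7 of 17 alternative settings and *Scarb1* in 2. The complement genes *C1qc*, *C1qa* and *C1qb* rose by 2.77, 2.59 and 2.45, and the receptor kinase genes *Axl* and *Mertk* by 1.07 and 0.72, whereas the scavenger receptor gene *Cd36* fell by 0.96. *Mertk* is also counted in the pan-macrophage list. The part of monocytes and neutrophils in the rises of this list of receptors and bridging molecules was not tested. The rise of *Cd5l* shared its direction with the *C1q*, *Axl* and *Mertk* genes, and the fall of *Timd4* with *Cd36*. Of these, *Axl*, *Mertk* and *Cd36* were named after their values were seen. Of 15 genes of monocytes and inflammatory macrophages 9 rose, 2 fell and 4 did not pass, with *Chil3* at 3.54, *Il1b* at 1.64 and *Ly6c2* at 1.19. *Chil3* averaged 5.14 in control spleens, with 1 control array at or below background, so the size of its change is uncertain. The mean level of the 15 genes was 8.64 to 8.77 on the lymphoma arrays and 7.97 to 8.02 on the control arrays, and their part in the changes of the resident genes was not tested.

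**Figure D3:**
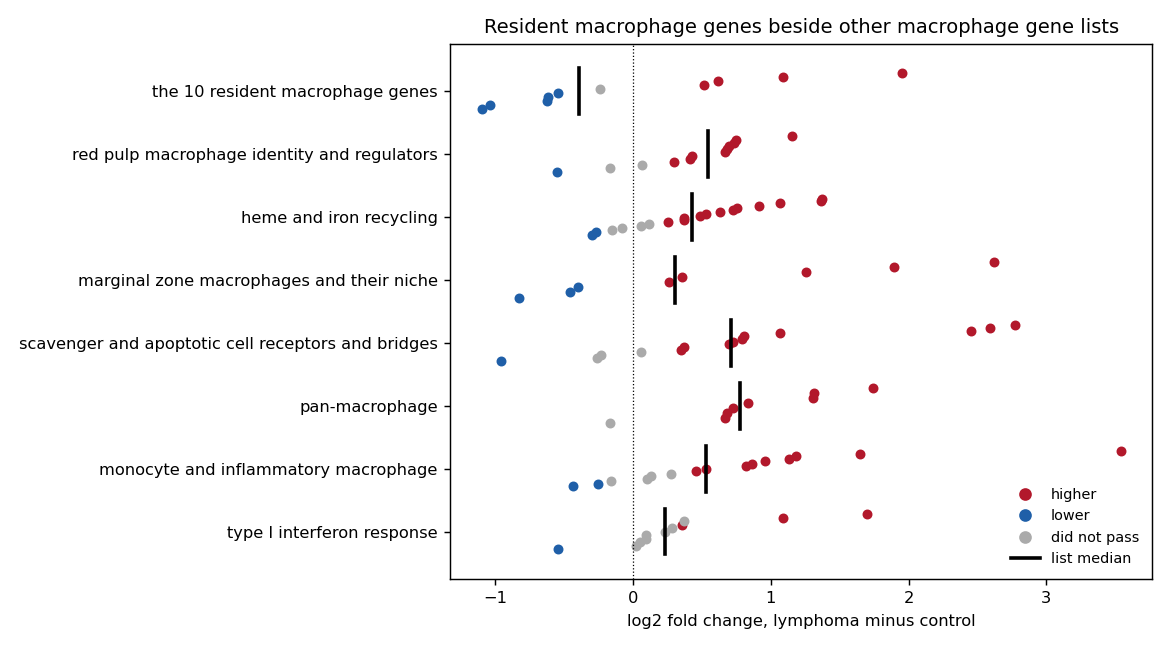
Log2 fold change of lymphoma against control spleens (horizontal axis) for every measured gene of 8 lists (rows), in red where called higher, blue where called lower and grey where the test was not passed; the black bar is the list median. The resident macrophage genes, in the top row, have a median of -0.39, below that of each other list shown, the next lowest being 0.23 for the interferon response. That median lies between genes that rose and genes that fell, and the mean level of the 10 genes overlapped between the groups.

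Within the lymphoma group the arrays differed most for *Slc40a1*, *Mrc1* and *Marco*, with SDs of 0.47, 0.41 and 0.34. Lymphoma replicate 3 had the highest value of its group for 7 of the 10 genes and replicate 4 the lowest for 7. The deviations from the lymphoma mean were 0.55 for *Slc40a1*, 0.54 for *Mrc1*, 0.47 for *Marco* and 0.36 for *Siglec1* on replicate 3, and 0.36 for *Adgre1* on the same array. On replicate 4 they were -0.29, -0.34, -0.33 and -0.32 for those 4 genes and -0.35 for *Adgre1*. *Cd5l* and *Vcam1* hardly took part, with all lymphoma deviations between -0.15 and 0.09. In the control group replicate 4 was lowest for 8 of the 10 genes, most of all for *Mrc1*, at -0.60, but not for *Adgre1*, at 0.04. Without any 1 of the 8 arrays the count stayed at 4 genes higher and was 4 or 5 lower.

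**Figure D4:**
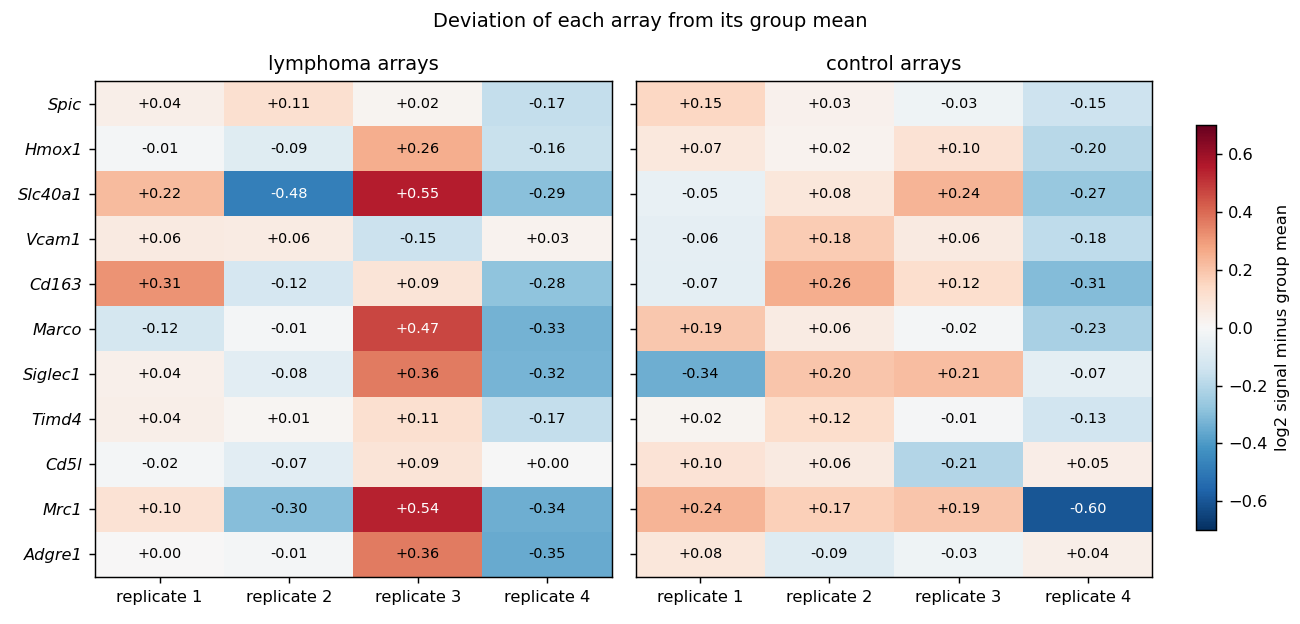
Log2 signal minus the mean of the group for the 10 genes and *Adgre1* (rows) on the 4 lymphoma arrays (left) and the 4 control arrays (right), from blue (below the mean) to red (above). Lymphoma replicate 3 stands above its group for *Slc40a1*, *Mrc1*, *Marco*, *Siglec1* and *Adgre1*, and control replicate 4 below its group for *Mrc1*.

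The named genes whose pattern over the 8 arrays was most like that of *Cd5l* were *Mmp8* (Pearson r = 0.999), *Cd300e* (r = 0.998) and *Lag3* (r = 0.997). For *Cd163* they were *Rev3l* (r = 0.997), *Ccnt2* (r = 0.994) and *Parg* (r = 0.993). The 8 arrays form 2 groups, so such values mostly rest on the difference between the groups, and they are given as a description. *Mmp8*, *Cd300e* and *Lag3* had log2 fold changes of 2.07, 1.56 and 2.74, and *Rev3l*, *Ccnt2* and *Parg* of -0.78, -0.53 and -0.44. The control mean of *Mmp8*, 4.88, lay within the range of the background medians, 4.76 to 4.94, so the size of its change is uncertain.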

How the data were processed

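Total RNA from 8 spleen samples, 4 lymphoma and 4 control by the genotype labels, was read on Affymetrix Clariom S HT arrays, with 1 array for each sample. The deposited log2 values were made by the authors from the scanner files by robust multichip average in R 3.6.3, which corrects the background, makes the signal distributions of the arrays alike and combines the probes of each cluster. Such scaling assumes that most genes do not shift together. Of 29129 rows, 6923 control probe sets were left out of the tests. The platform annotation gave 1 symbol to 19572 clusters and none to 2634. RefSeq of GRCm38.p6 changed 0 of these symbols.

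Lymphoma was tested against control on these log2 values by limma 3.58.1 in R 4.3.3 (lmFit, eBayes, Benjamini-Hochberg over 22206 clusters, called at an adjusted p of at most 0.05), and the fit was tested on simulated data. A gene with several clusters was read from the brightest. Of 142 genes of the other lists, 129 were measured; the others were not analysed here. Named were the 10 genes, the 3 largest called changes of each list and the 3 genes with the pattern most like the largest rise and the largest fall; other list genes were named for their role after their values were seen. The genes, the lists and the pairs were chosen with earlier results of these data known. Alternatives were the replicate block, cyclic loess or equal medians, a trended robust moderation, array weights, filters on dim clusters, stricter thresholds, all clusters of a gene, the list's median and each array left out; a smaller pan-macrophage list and *Adgre1* alone were added after seeing the data. The knock-in allele that both groups share is not reported here. The labels do not say whether the replicate numbers pair the samples, and the main test did not pair them. No batch or date is given in the sources used here, and precision is limited by how many arrays there are.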

Additional observations from a re-analysis of the deposited data

Results flagged for a closer look

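Each gene was checked in each group for an array far from the other 3, by the gap to its nearest neighbour over the whole range of the group. Of 20 such groups 2 stood out, where chance gives about 1 in 20. *Mrc1* in control spleens had 7.76 on replicate 4, against 8.53 to 8.60 on the other control arrays, and without that array its log2 fold change was -0.44, still short of the threshold. *Cd5l* in control spleens had 7.40 on replicate 3, against 7.66 to 7.71 on the others, and without that array its log2 fold change was 1.88.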

How the results depend on the processing

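In 18 alternative settings the log2 fold changes of the 10 genes kept their sign in all 180 fits, and apart from a 2-fold minimum only *Slc40a1* lost its call, in 6 of them. With a 2-fold minimum 2 of the genes were higher and 2 lower, and over all clusters 673 were higher and 151 lower. At an adjusted p of at most 0.01, 2166 clusters were lower. Leaving out 1 array gave 3565 to 3910 clusters higher and 3062 to 3670 lower. The replicate block gave 4039 clusters higher and 3983 lower, and 4 of the 10 genes higher and 5 lower. With it *Slc40a1* had a limma adjusted p of 0.00546. Same-numbered arrays deviated with correlations of 0.0352 to 0.172, and differently numbered arrays with -0.14 to 0.0609. For each lymphoma array the same-numbered control array had the highest of these correlations. The values are small, so whether the numbers pair the samples is not settled, and the main test did not pair them. In the exact tests within arrays the block cannot go below p = 0.125. The difference relative to the pan-macrophage list turned for *Vcam1* with the list's median (-0.26), and for *Spic* and *Hmox1* with *Adgre1* alone (0.78 and 0.68). Without *Itgam* and *Spi1* in the list no call changed, though *Aif1* and *Fcgr1*, which rose by 1.74 and 1.31, stayed in it. The erythroid genes called higher numbered 0 to 4 over the settings. Relative to the list, *Mrc1* lost its call in 7 of 8 fits that leave out 1 array (-1.32 to -1.01) and after cyclic loess.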
